A study of Mus musculus with 13 samples.

Results

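Vitamin A handling in mouse liver was followed through the transcripts of Lrat, Rbp4, Cyp26a1, Cyp26b1, Rarb, Aldh1a1, Aldh1a2, Rdh10 and Bco1. These 9 genes were taken by symbol from the 22048 genes of a whole-liver RNA-seq count table, and all 9 were found and passed the filter on low counts. The 13 libraries comprised 6 controls, of which replicates 1, 2 and 6 were male, 4 livers from which hepatic stellate cells had been depleted, of which only replicate 3 was male, and 3 livers collected 72 h into regrowth following partial hepatectomy (surgical removal of part of the organ), of which only replicate 3 was female. The strain, age and alleles of the mice, the agent that depleted the stellate cells, and whether controls had sham surgery are not given in the sources used here. The series title concerns stellate cells, neurotrophin-3 and hepatocyte proliferation, so the retinoid genes were read here against the presence or loss of the cell that stores vitamin A.

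Vitamin A reaches the liver as retinyl ester. Hepatocytes hydrolyse it and either secrete retinol bound to retinol-binding protein, the product of Rbp4, or pass it to stellate cells, where lecithin:retinol acyltransferase, the product of Lrat, esterifies it again for storage in lipid droplets. Retinol is oxidised reversibly to retinal, a step that RDH10 carries out, and retinal is oxidised irreversibly to retinoic acid by ALDH1A1 and ALDH1A2. BCO1 makes retinal from dietary beta-carotene. Retinoic acid acts through nuclear receptors such as RAR beta, the product of Rarb, paired with retinoid X receptors, and the enzymes CYP26A1 and CYP26B1 break it down. Cyp26a1 and Rarb are textbook targets of retinoic acid itself.

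The promoters of both hold the letters of the classical retinoic acid response element, shown here because it is the sequence feature that sets these 2 members apart from the other members with a promoter entry. RefSeq promoter windows (GRCm38.p6, 250 bases before to 50 after the start) were matched for 8 of the 9 members, with 2 alternative windows each for Aldh1a1 and Rbp4. Rdh10 had no entry. The core motif was searched on both strands in 4 spellings: AGGTCA is the consensus, AGTTCA is a common variant, GGGTCA was searched beside them, and GGTTCA completed the set. Direct repeats of any of these with 5 or 2 bases between were searched too. The repeat with 1 base between was added after the Bco1 window had been read. Every window with a repeat also counts among those with a single core, and these cores are read by several nuclear receptors. The 250 bases before the start are printed in the gene's own direction, with each core motif in capitals. On the opposite strand AGTTCA appears as TGAACT, and there the consensus is spelled TGACCT.
Cyp26a1, chr19:37697558-37697807, plus strand: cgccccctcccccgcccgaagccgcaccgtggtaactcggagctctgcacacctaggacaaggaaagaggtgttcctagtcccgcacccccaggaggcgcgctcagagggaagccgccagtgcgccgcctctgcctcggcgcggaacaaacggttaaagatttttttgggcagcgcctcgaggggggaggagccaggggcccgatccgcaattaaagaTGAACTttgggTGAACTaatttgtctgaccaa
Rarb, chr14:16575477-16575726, minus strand: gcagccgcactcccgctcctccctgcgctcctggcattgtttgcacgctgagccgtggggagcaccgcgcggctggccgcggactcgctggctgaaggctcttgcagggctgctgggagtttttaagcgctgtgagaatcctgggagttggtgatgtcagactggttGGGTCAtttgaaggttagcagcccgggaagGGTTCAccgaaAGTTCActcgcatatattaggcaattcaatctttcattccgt
Bco1, chr8:117095615-117095864, plus strand: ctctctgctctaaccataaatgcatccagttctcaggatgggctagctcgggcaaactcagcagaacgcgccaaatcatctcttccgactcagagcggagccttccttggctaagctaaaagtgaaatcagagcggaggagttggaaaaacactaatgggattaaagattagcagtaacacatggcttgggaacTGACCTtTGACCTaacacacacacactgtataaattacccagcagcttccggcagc
The Cyp26a1 window held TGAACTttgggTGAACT, a repeat with 5 bases between, beginning at position -32 from the start. The Rarb window held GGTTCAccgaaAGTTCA, with the same spacing, beginning at position -53, and a single GGGTCA further upstream at -83. That spacing occurred in 32 of all 32851 mouse windows (0.0974%), whereas a single core occurred in 43.7% and a repeat with 2 bases between in 0.268%. Bco1 carried TGACCTtTGACCT at -56, a repeat with 1 base between that occurred in 0.222% of windows. No window of Lrat, Cyp26b1 or Aldh1a2 held a core motif, which says only that these letters are not in those windows. A match describes the sequence and is not a measured binding site.

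The 9 genes lie at separate loci, the nearest pair being Cyp26a1 and Rbp4 at 415.1 kb from each other. In the coordinates of the deposited table (mm10), Cyp26a1 lies at chr19:37697808-37701528 on the plus strand and Rbp4 at chr19:38116620-38125321 on the minus strand, and Aldh1a1 is on the same chromosome at chr19:20601961-20643462 on the plus strand. Lrat lies at chr3:82892579-82903973, Cyp26b1 at chr6:84571414-84593908 and Rarb at chr14:16430842-16575472, all on the minus strand. Aldh1a2 lies at chr9:71215789-71296243, Rdh10 at chr1:16105774-16133734 and Bco1 at chr8:117095854-117133720, all on the plus strand. Values are read counts summed over each gene's exons. Exons of Rarb overlap those of Top2b on the opposite strand, so the Rarb count may hold Top2b reads, because the strand setting of the counting is not given.

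Library totals ran from 35360991 to 51008737 counts, at which a level of 3 counts, used here as the floor, corresponds to 0.0588 to 0.0848 CPM, the count relative to the library total. Floors cover counting error only, since the reads have no molecular identifiers. Levels of 1 gene across libraries are given in CPM after TMM normalisation (trimmed mean of M values). The labels do not say that each library came from a separate mouse, so p-values measure the spread between these libraries. The labelled depletion was described with 20 stellate cell markers, a list chosen with earlier results of these data known and so no independent check. Of these markers 19 were tested and all 19 were lower in depleted than in control livers (15% of all tested genes were). Their summed level was 359 to 896 CPM in controls, 16.7 to 20.2 CPM in depleted replicates 1, 2 and 3, 78.0 CPM in depleted replicate 4 and 379 to 746 CPM after hepatectomy. Nkx3-2 was at 0 in every library, and Des, Hand2, Bmp5, Hhip and Tcf21 were at 0 in depleted replicates 1, 2 and 3. Control replicate 6 stood apart among controls, with the lowest stellate sum (359 CPM) and an endothelial marker sum of 125 CPM against 403 to 595 CPM in the other controls. In whole liver, fewer cells of a type and less RNA per cell cannot be told apart.

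Per exon length, as TPM (counts scaled to exon length and then to the library), Rbp4 was the most abundant of the 9 genes in control liver at 4780 ± 614 TPM (SD, n = 6). Aldh1a1 followed at a mean of 1486 TPM. The 7 other members were far lower, with means of 53.8 TPM for Cyp26a1, 16.9 for Lrat, 15.9 for both Rdh10 and Bco1, 6.59 for Cyp26b1, 5.09 for Rarb and 0.371 for Aldh1a2. Neighbours in this order from Cyp26a1 down to Rarb overlapped in range, whereas Aldh1a2 lay below every Rarb value. In depleted livers Cyp26a1 was still 3 of 9 in rank but at 462 ± 203 TPM (SD, n = 4), near Aldh1a1 at 672 TPM, and Lrat went from rank 4 to rank 9 at 0.373 TPM. After hepatectomy Bco1 ranked 3 of 9 at 34.3 TPM, and Cyp26a1 averaged 8.98 ± 1.76 TPM (SD, n = 3). The members together held 0.353% to 0.483% of counts in control, 0.202% to 0.280% in depleted and 0.295% to 0.370% in hepatectomised livers, a share made up mostly of Rbp4 and Aldh1a1.

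**Figure D1:**
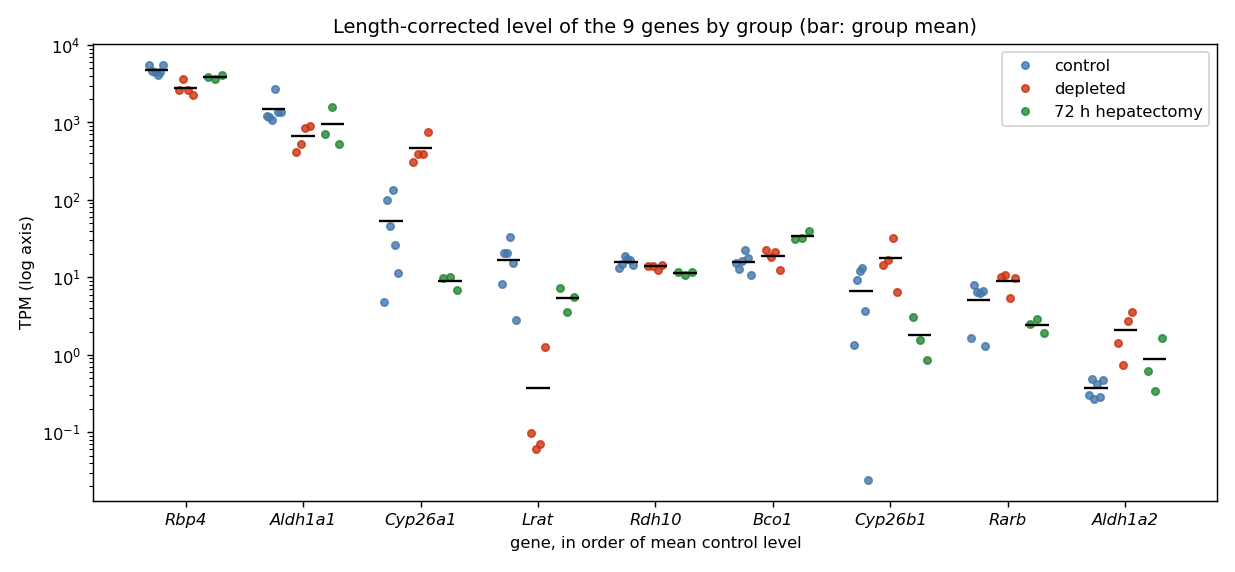
Level per exon length (TPM, log axis) of the 9 retinoid genes in control (n = 6), stellate cell-depleted (n = 4) and 72 h hepatectomised (n = 3) livers, with points for libraries. Rbp4 and Aldh1a1 lead in all groups, Cyp26a1 averages 462 TPM in depleted livers against 53.8 in controls, and Lrat is the lowest of the 9 in depleted livers.

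Against controls, 6 of the 9 genes passed the threshold in depleted livers (adjusted p under 0.05, edgeR quasi-likelihood test over 13831 genes), where 33.9% of all tested genes did. Cyp26a1 and Aldh1a2 rose, and Lrat, Rbp4, Aldh1a1 and Rdh10 fell. The CPM ranges of the groups did not overlap for the same 6 genes, against 28.4% of all tested genes. The median log2 fold change of the 9 members was 0.06, beside -0.03 for all tested genes. After hepatectomy 1 of 9 passed, Bco1, where 8.42% of all tested genes did, and its range was the only member range apart from controls (13.7% of all tested genes). The median over the members was -0.43, beside -0.02 for all tested genes. Both comparisons share the control libraries, so the perturbed groups were also compared directly, and 4 of 9 members passed there (23.4% of all tested genes). Ranges were apart for 6 of 9 in that comparison, where 34% of all tested genes were.

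**Figure D2:**
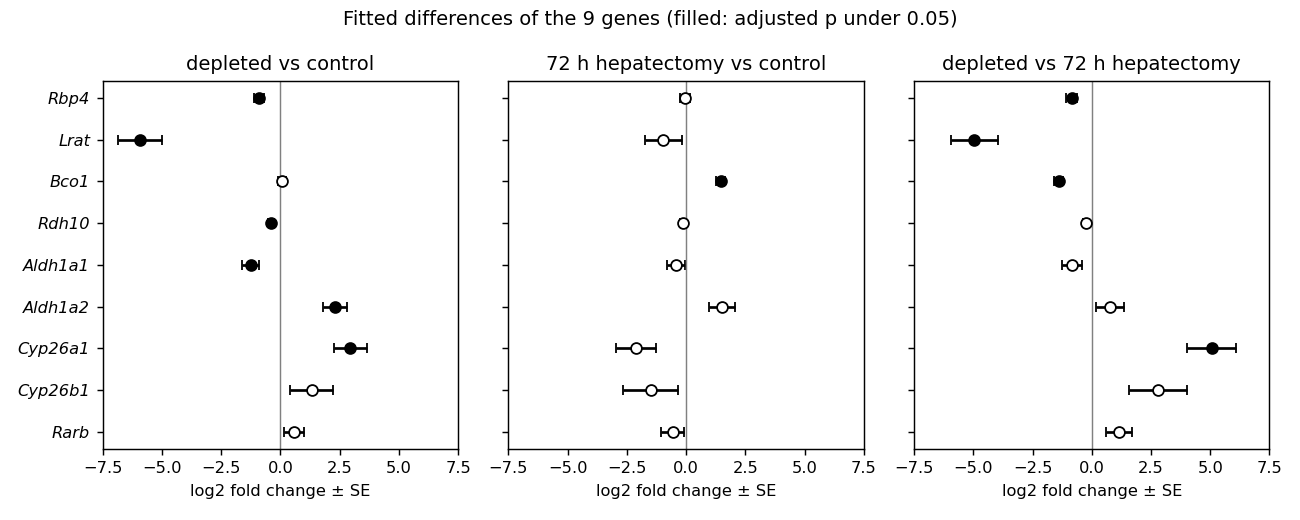
Log2 fold change with its standard error for each of the 9 genes in depleted against control, hepatectomised against control and depleted against hepatectomised livers, from the edgeR model with group and sex. Filled symbols passed the threshold: 6 genes in the first comparison, 1 in the second and 4 in the third.

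Lrat, the storage enzyme, lost nearly all its transcript with the stellate cells. Control livers held 19.1, 48.0, 47.3, 67.4, 32.6 and 7.77 CPM in replicates 1 to 6 (median 39.9). Depleted livers held 0.193, 0.134, 0.140 and 2.54 CPM in replicates 1 to 4, which are 9, 6, 8 and 114 reads. Replicates 1, 2 and 3 thus lay just above the 3-count floor, while replicate 4 lay above them and below every control. The log2 fold change was -5.93 ± 0.93 (SE), a 60.9-fold lower level (edgeR adjusted p = 0.000474). Without depleted replicate 4, which also kept the highest stellate marker sum of its group, the value was -7.90 (adjusted p = 4.37e-05), a choice made after its value was seen. Hepatectomised livers held 21.2, 9.68 and 15.3 CPM, inside the control range, with a log2 fold change of -0.96 ± 0.80 (edgeR adjusted p = 0.497). That value was -0.37 without control replicate 2 (adjusted p = 0.849), -0.54 without hepatectomised replicate 3 (adjusted p = 0.794), -1.51 without hepatectomised replicate 1 (adjusted p = 0.362) and -1.36 without control replicate 6 and depleted replicate 4 (adjusted p = 0.05, just inside the threshold before rounding). Hepatectomised livers lay above all depleted livers, with a log2 difference of -4.97 ± 0.99 for depleted against hepatectomised (edgeR adjusted p = 0.00393). With 1 library left out that difference ran from -6.85, without depleted replicate 4 (adjusted p = 0.000235), to -4.49, without hepatectomised replicate 1, and passed the threshold each time. Leaving out the male libraries took it to -4.04 (adjusted p = 0.0761), in a fit with 1 hepatectomised library.

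**Figure D3:**
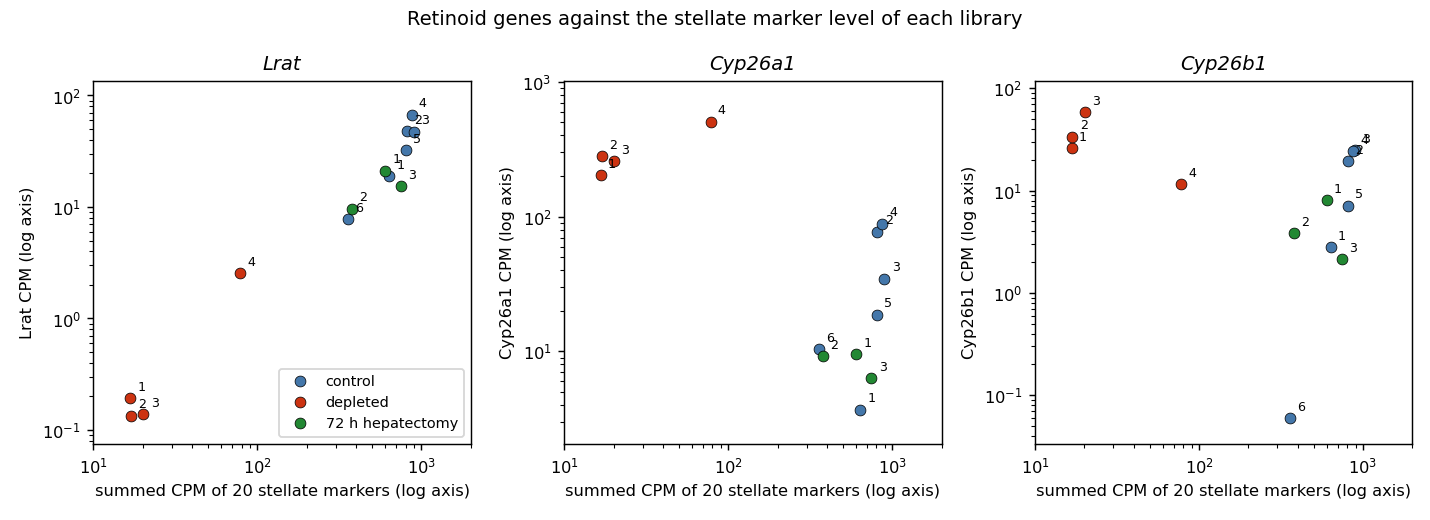
Lrat, Cyp26a1 and Cyp26b1 (CPM, log axis) in each library against the summed CPM of 20 stellate cell markers (log axis), coloured by group. Depleted livers form a separate cluster on the left, low in Lrat (0.134 to 2.54 CPM) and high in Cyp26a1 (203 to 507 CPM). Among them, replicate 4 lies closest to the other groups in the marker sum and Lrat but farthest from them in Cyp26a1 (507 CPM).

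Rbp4, the plasma carrier of retinol made by hepatocytes, fell in depleted livers and stayed within the control range after hepatectomy. Control levels were 3117, 2599, 2468, 1971, 2332 and 3644 CPM. Depleted livers held 1272, 1906, 1262 and 1096 CPM, all below the lowest control. Hepatectomised livers held 2752, 2413 and 2749 CPM. The log2 fold change was -0.90 ± 0.20 for depleted livers (edgeR adjusted p = 0.0045) and -0.04 ± 0.21 for hepatectomised livers (adjusted p = 0.935). Depleted livers were also lower than hepatectomised livers, by -0.86 ± 0.24 (edgeR adjusted p = 0.0198). With female libraries alone the depletion value was -0.66 (adjusted p = 0.121), and the difference between the perturbed groups was -0.70 without depleted replicate 3 (adjusted p = 0.107) or without hepatectomised replicate 3 (adjusted p = 0.137) and -0.96 with females alone (adjusted p = 0.142). Ttr, whose product transthyretin carries the retinol-RBP4 complex in plasma, had a log2 fold change of -0.39 ± 0.18 in depleted livers (edgeR adjusted p = 0.107) and overlapped the controls.

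Bco1, which cleaves beta-carotene, rose after hepatectomy and not in depleted livers, and the difference between those groups passed its own test. Control livers held 16.6, 14.2, 17.8, 21.4, 18.1 and 13.8 CPM. Hepatectomised livers held 43.0, 42.5 and 51.4 CPM, above every other library of the series. Depleted livers, at 21.7, 19.0, 20.03 and 11.8 CPM, spread across the control range. The rise after hepatectomy was 2.75-fold, a log2 fold change of 1.46 ± 0.18 (edgeR adjusted p = 0.000753), and depleted livers differed from hepatectomised livers by -1.40 ± 0.20 (adjusted p = 0.000547). Against controls, depleted livers had a value of 0.06 ± 0.17 (edgeR adjusted p = 0.81). The lone female hepatectomised library gave 1.44 against female controls (adjusted p = 0.128). Bco2, which cleaves carotenoids at another bond, had a log2 fold change of -0.85 in depleted and -0.56 in hepatectomised livers and passed in neither.

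Rdh10, which oxidises retinol to retinal, changed least among the called members. Control levels lay between 23.8 and 33.8 CPM with a median of 27.4, and depleted levels were 22.0, 23.7, 19.5 and 22.9 CPM, just below the lowest control. The log2 fold change was -0.39 ± 0.11 (edgeR adjusted p = 0.0165). This call was lost when libraries were scaled by size alone (-0.28, adjusted p = 0.0653), in females alone (-0.37, adjusted p = 0.125), and without control replicate 3 (-0.33, adjusted p = 0.051) or depleted replicate 3 (-0.35, adjusted p = 0.0932). Hepatectomised livers, at 26.8, 22.9 and 25.4 CPM, overlapped both other groups (-0.15 ± 0.12 against controls, edgeR adjusted p = 0.479).

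The enzymes that form retinoic acid moved in opposite directions in depleted livers. Aldh1a1, the abundant retinal dehydrogenase of hepatocytes, held 1072, 1045, 931, 2103, 1144 and 1421 CPM in controls and 316, 442, 650 and 693 CPM in depleted livers, with no overlap. Its log2 fold change was -1.26 ± 0.35 (edgeR adjusted p = 0.0142). After hepatectomy it held 796, 1683 and 552 CPM, a spread that covered most of the control range, with a value of -0.43 ± 0.39 (edgeR adjusted p = 0.533). This value was -0.94 without hepatectomised replicate 2 (adjusted p = 0.207), -0.04 without hepatectomised replicate 3 (adjusted p = 0.971), -0.28 without hepatectomised replicate 1, -0.25 without control replicate 4 and -1.32 with females alone (adjusted p = 0.466). Of 12 markers of pericentral hepatocytes, which surround the central vein, 10 were also lower in depleted livers, where 15% of all tested genes were. Their sum there was 1383 to 2864 CPM against 12440 to 16540 CPM in controls and 5866 to 12110 CPM after hepatectomy. Their part in the result was not tested.

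Aldh1a2, the retinal dehydrogenase best known from embryonic and mesothelial tissue, was close to the limit of detection. Control libraries had 11 to 19 reads (0.257 to 0.540 CPM), and depleted libraries had 56, 31, 131 and 135 reads (1.2, 0.694, 2.29 and 3.01 CPM). All depleted livers lay above all controls, a 4.90-fold difference on a log2 scale of 2.29 ± 0.51 (edgeR adjusted p = 0.00409). Hepatectomised livers held 0.764, 0.393 and 1.95 CPM and overlapped both groups, with a value of 1.51 ± 0.55 against controls (edgeR adjusted p = 0.113) that was 0.43 without hepatectomised replicate 3 (adjusted p = 0.715). The summed markers of portal fibroblasts and mesothelium were 12.5 to 23.3 CPM in controls, 29.7 to 44.5 CPM in depleted livers and 33.0 to 94.6 CPM after hepatectomy. Of these 14 markers, 2 rose and 2 fell in depleted livers (18.9% and 15% of all tested genes) and 9 rose after hepatectomy (6.06% of all tested genes), and Mfap4 was at 0 in depleted replicates 1, 2 and 3. Thy1, which lymphocytes also express, went from a mean of 0.789 CPM in controls to 12.9 CPM in depleted livers and made up most of the higher sum there. None of the mesothelial markers Msln (0.386 and 0.829 CPM), Upk3b (0.586 and 0.674), Upk1b, Lrrn4 (0.0817 and 0.377), Wt1 (0.320 and 0.154) and Gpm6a (1.01 and 1.84) passed in depleted livers. The sum of monocyte and neutrophil markers, at 2.58 to 10.1 CPM in control livers, reached 225 to 576 CPM with depletion. The part of either cell group in the Aldh1a2 value was not tested.

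Cyp26a1, the main hepatic enzyme that clears retinoic acid, had the largest rise of the 9 genes in depleted livers. Control livers held 3.70, 77.4, 34.7, 88.8, 18.7 and 10.4 CPM, a wide spread with a 24.0-fold ratio of highest to lowest. Depleted livers held 203, 282, 259 and 507 CPM, all above the highest control. Hepatectomised livers held 9.55, 9.18 and 6.34 CPM, at the lower end of the control range and above its lowest library. The log2 fold change was 2.94 ± 0.70 in depleted livers, 7.69-fold (edgeR adjusted p = 0.00648), and -2.11 ± 0.86 in hepatectomised livers (adjusted p = 0.157). Depleted and hepatectomised livers differed by 5.06 ± 1.04 (edgeR adjusted p = 0.00472). Per 100 TPM of Aldh1a1, Cyp26a1 ranged over 0.399 to 8.58 TPM in controls, over 46.1 to 84.6 with depletion and over 0.631 to 1.39 after hepatectomy. The ratio combines 2 genes whose depleted and control ranges were each already apart in opposite directions, so it is a description and adds no separate evidence.

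The controls were not uniform in Cyp26a1, and the same libraries were low in other members. Control replicates 1 and 6 had the lowest Cyp26a1, Cyp26b1, Rarb and Lrat levels of the 6 controls. Both are male, as is control replicate 2, which had 77.4 CPM of Cyp26a1. Leaving out both, chosen after their values were seen, kept the depletion call at 2.55 (edgeR adjusted p = 0.00302) and moved the hepatectomy value to -2.84 (adjusted p = 0.035). Leaving out any single library gave -2.45 to -1.12 after hepatectomy (adjusted p from 0.0691 to 0.481). Across all groups, 0 of the 9 members passed for sex (142 genes or 1.03% of all tested genes did), 0 had an unadjusted p under 0.05, and DESeq2 and limma-voom also called 0.

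Cyp26b1 followed the same order of groups as Cyp26a1 without passing the test. Controls ran from 0.0600 CPM in replicate 6, where 2 reads were counted, through 2.79, 7.14, 19.3 and 24.1 to 24.98 CPM in replicate 3. Depleted livers held 26.1, 33.6, 58.8 and 11.7 CPM and hepatectomised livers 8.08, 3.82 and 2.15 CPM. Both overlapped the controls but not each other. Depleted against hepatectomised livers gave 2.81 ± 1.22 (edgeR adjusted p = 0.119), against controls depleted livers gave 1.31 ± 0.90 (adjusted p = 0.29) and hepatectomised livers -1.50 ± 1.16 (adjusted p = 0.463). Without control replicate 6, which enters the shared spread, the first of these was 2.98 (edgeR adjusted p = 0.0235), and with only those 2 groups in the fit it was 3.37 (adjusted p = 0.00706). Without depleted replicate 3 it was 1.77 (adjusted p = 0.5). That of hepatectomised livers against controls ran from -2.1 to -0.92 with 1 library left out (edgeR adjusted p from 0.159 to 0.751). The value of depleted livers against controls was 0.64 without depleted replicate 3 (adjusted p = 0.727), 0.62 without control replicates 1 and 6 (adjusted p = 0.36) and 0.35 with females alone (adjusted p = 0.705).

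Rarb, the receptor gene, was shifted less. Control levels were 2.17, 10.5, 8.36, 7.26, 8.26 and 2.01 CPM. Depleted livers held 11.4, 13.5, 6.06 and 11.2 CPM and hepatectomised livers 4.09, 4.46 and 2.99 CPM, so the perturbed groups did not overlap each other while both overlapped the controls. Log2 fold changes were 0.58 ± 0.42 in depleted livers (edgeR adjusted p = 0.323), -0.56 ± 0.49 after hepatectomy (adjusted p = 0.516) and 1.14 ± 0.56 between them (adjusted p = 0.162). In female libraries alone, depleted livers were higher than controls by 0.59 (edgeR adjusted p = 0.043) and than the 1 hepatectomised liver by 1.99 (adjusted p = 0.00611). Without control replicates 1 and 6 the value against controls was 0.30 (edgeR adjusted p = 0.419) and that against hepatectomised livers 1.45 (adjusted p = 0.00815), and without hepatectomised replicate 3 the latter was 0.64 (adjusted p = 0.521). The repeat with 5 bases between that Rarb shares with Cyp26a1 was thus present in 1 member that rose and 1 that did not pass.

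**Figure D4:**
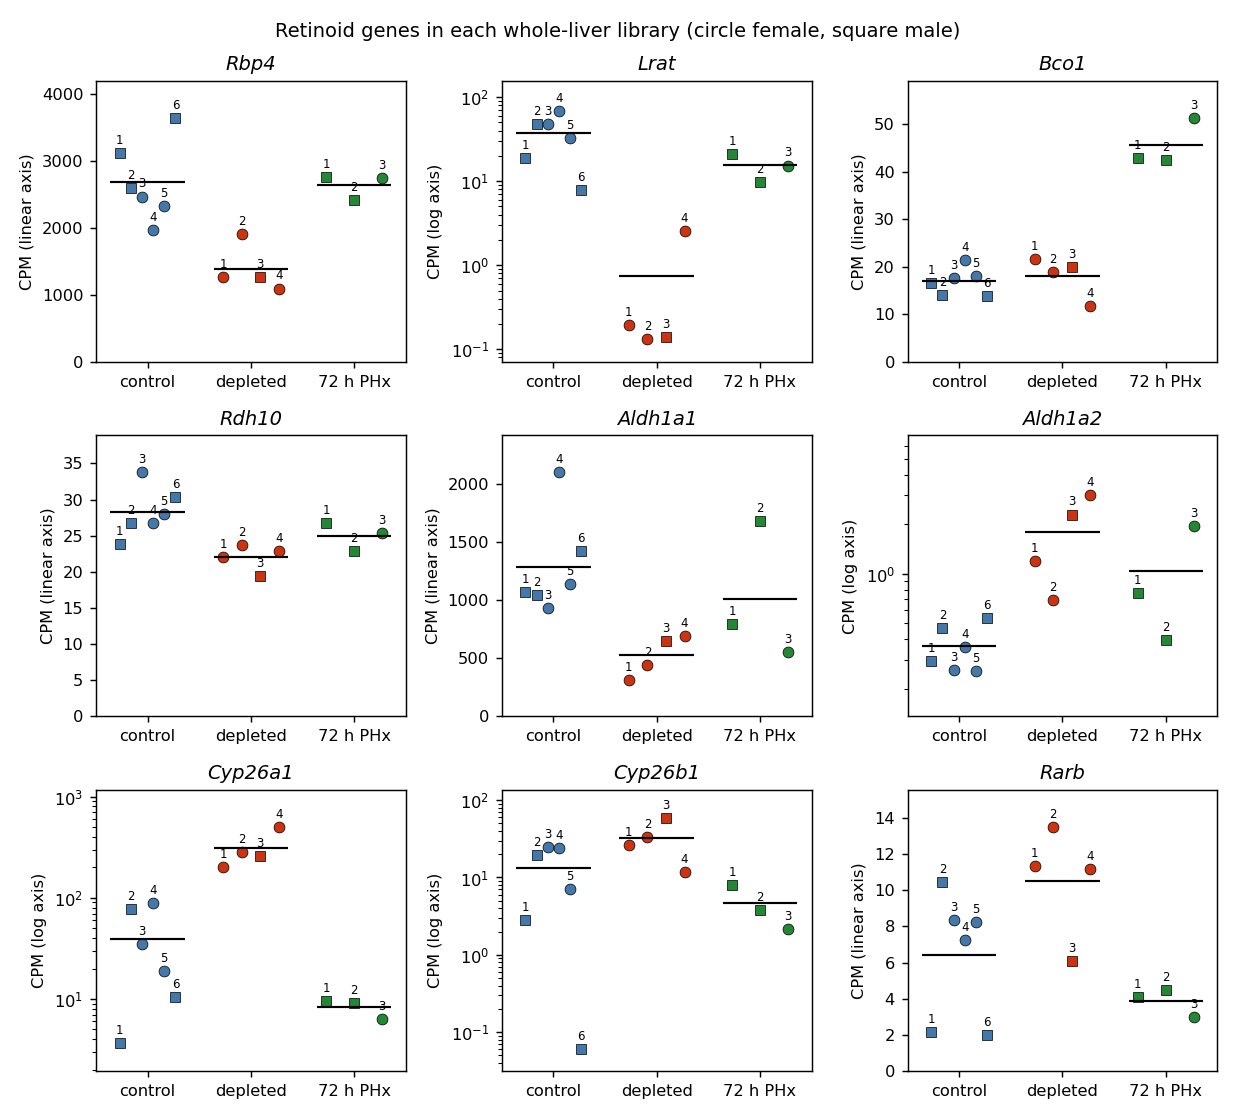
CPM of the 9 genes in each library, by group (72 h PHx is 72 h after partial hepatectomy), with replicate numbers, circles for females, squares for males and a bar at the group mean; axes are linear from 0 or logarithmic, as labelled. Lrat is lowest and Cyp26a1 highest in depleted livers, Bco1 is high only after hepatectomy, and control replicates 1 and 6 sit lowest among controls for Lrat, Cyp26a1, Cyp26b1 and Rarb.

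Around these 9 genes, a list of 54 others of uptake, ester turnover, oxidation, signalling and response was counted, of which 45 were tested. In depleted livers 5 rose and 17 fell (edgeR), where 18.9% of all tested genes rose and 15% fell, and the list's median log2 fold change was -0.31, beside -0.03 for all tested genes. After hepatectomy 4 rose and 1 fell, where 6.06% of all tested genes rose and 2.36% fell. Rdh12, Adh7, Tgm2 and Fabp5, a fatty acid and retinoic acid carrier (1.66 ± 0.40, edgeR adjusted p = 0.0254), were higher and Rdh16 was lower. Both counts of rising genes include Rdh12, which met the low-count filter only through its reads outside the controls. In depleted livers, genes for stored or delivered retinoid were called in both directions. Of 6 tested uptake and transport genes there, Lpl, the lipoprotein lipase that frees lipid from circulating particles, rose (1.63 ± 0.26, edgeR adjusted p = 0.000413) and Stra6l, a retinol transporter, fell (-0.50 ± 0.16, adjusted p = 0.0309). Among 5 ester genes, Dgat1, an acyltransferase that can also esterify retinol, and Lipa, the lysosomal lipase, fell in depleted livers (-0.39, adjusted p = 0.027, and -0.61, adjusted p = 0.0117). Calls near the threshold were lost when single libraries were left out, with fold changes of similar size: that of Stra6l in depleted livers was lost without control replicate 3 or 5 or depleted replicate 2 or 4 (-0.50 to -0.41, adjusted p up to 0.0834), that of Dgat1 in depleted livers without control replicate 3 or depleted replicate 1, 2 or 3 (-0.40 to -0.32, up to 0.124), and that of Fabp5 after hepatectomy without control replicate 1, 3 or 5 or hepatectomised replicate 2 or 3 (1.44 to 1.70, up to 0.117). Females alone, and the replicate block, also ended these 3 calls, and library-size scaling ended those of Stra6l (-0.38), Dgat1 (-0.28) and Lipa (-0.50, adjusted p = 0.0544). Leaving out control replicates 1 and 6 ended those of Dgat1 (-0.32) and Fabp5 (1.74), and leaving out control replicate 6 with depleted replicate 4 that of Stra6l (-0.43).

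Of 18 tested retinol and retinal oxidoreductases, 8 fell and 2 rose in depleted livers, where 15% of all tested genes fell and 18.9% rose. Rdh9, a retinol dehydrogenase, fell by 3.83 and Hsd17b6, an enzyme of steroid and retinol oxidation, by 3.02 on the log2 scale (edgeR adjusted p = 1.15e-05 and 0.000801), with the caution that Rdh9, Rdh7 and Rdh16 are close copies among which reads may be shared. Rdh12, a retinal reductase, had 1 to 3 reads per control library against 46, 40, 55 and 22 in depleted and 12, 8 and 24 in hepatectomised livers, and it passed in both comparisons (edgeR adjusted p = 5.57e-05 and 0.00502). Rdh12 met the low-count filter only through its reads outside the controls, and its hepatectomy call was lost in females alone (adjusted p = 0.0979) and with the replicate block (adjusted p = 0.0516). Dhrs3, which returns retinal to retinol, had a value of -0.16 ± 0.25 (edgeR adjusted p = 0.659). All 4 tested genes of retinoic acid synthesis and related aldehyde oxidation fell: Aox3 by 2.08 and Aox1 by 0.80 on the log2 scale (adjusted p = 6.89e-05 and 0.0109), Aldh8a1, and Aldh1a3, which had 10 to 26 reads in controls and 2, 0, 0 and 3 in depleted livers (adjusted p = 0.00108). Each Aldh1a3 count in depleted livers was at or under the 3-count floor. The Aox1 call was lost without depleted replicate 3 (-0.67, edgeR adjusted p = 0.0757) and in females alone (-0.60, adjusted p = 0.112).

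In depleted livers 2 of 5 receptor genes and 2 of 6 tested response genes passed, where 33.9% of all tested genes did. Among the receptor genes, Rxra (-0.47 ± 0.12, edgeR adjusted p = 0.00809) and Rxrb (-0.37 ± 0.12, adjusted p = 0.0264), the retinoid X receptors that partner the retinoic acid receptors, fell, and Rara had a value of 0.05 ± 0.15 (adjusted p = 0.83). Of the response genes, Tgm2, a transglutaminase induced by retinoic acid, rose in depleted (1.48 ± 0.27, edgeR adjusted p = 0.0012) and hepatectomised livers (1.12 ± 0.31, adjusted p = 0.0416), and Nrip1, a nuclear receptor corepressor, rose in depleted livers (0.52 ± 0.17, adjusted p = 0.0307). Tgm2 in depleted livers was 206 to 409 CPM against 75.3 to 136 CPM in controls. The list of Kupffer cell markers did not move together in depleted livers: 5 of 10 were higher, where 18.9% of all tested genes were. Clec4f did not pass, with a median of 119 CPM in controls (20.35 to 164.6) and 2.81 CPM in depleted livers (0.236 to 69.5). Vsig4 had means of 35.2 and 20.1 CPM. The summed level of all 10 was 1028 to 2217 CPM with depletion against 534 to 874 CPM in controls and 376 to 1005 CPM after hepatectomy, and their part in the Tgm2 value was not tested. After hepatectomy Tgm2 values were 189, 382 and 148 CPM, and that call was lost without hepatectomised replicate 2 (0.62, adjusted p = 0.218), without depleted replicate 1 or 3, and without any 1 of control replicates 1, 2, 3, 5 and 6. It was also lost in 7 other alternatives, where it ranged from 0.24 in females alone (adjusted p = 0.829) to 1.14. The Rxrb call was lost without control replicate 3 or any 1 of depleted replicates 1, 2 and 3 (adjusted p up to 0.0858), and the Nrip1 call without control replicate 1, 2 or 6 or any 1 of depleted replicates 1, 2 and 3 (adjusted p up to 0.24). Females alone ended the calls of Rxra (-0.45, edgeR adjusted p = 0.137), Rxrb (-0.34, 0.162) and Nrip1 (0.28, 0.436), library-size scaling that of Rxrb (-0.25, 0.181), limma-voom (0.48, 0.0511) and the replicate block (0.46, 0.146) that of Nrip1, and leaving out control replicates 1 and 6 those of Rxrb (-0.33, 0.0527) and Nrip1 (0.43, 0.109).

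**Figure D5:**
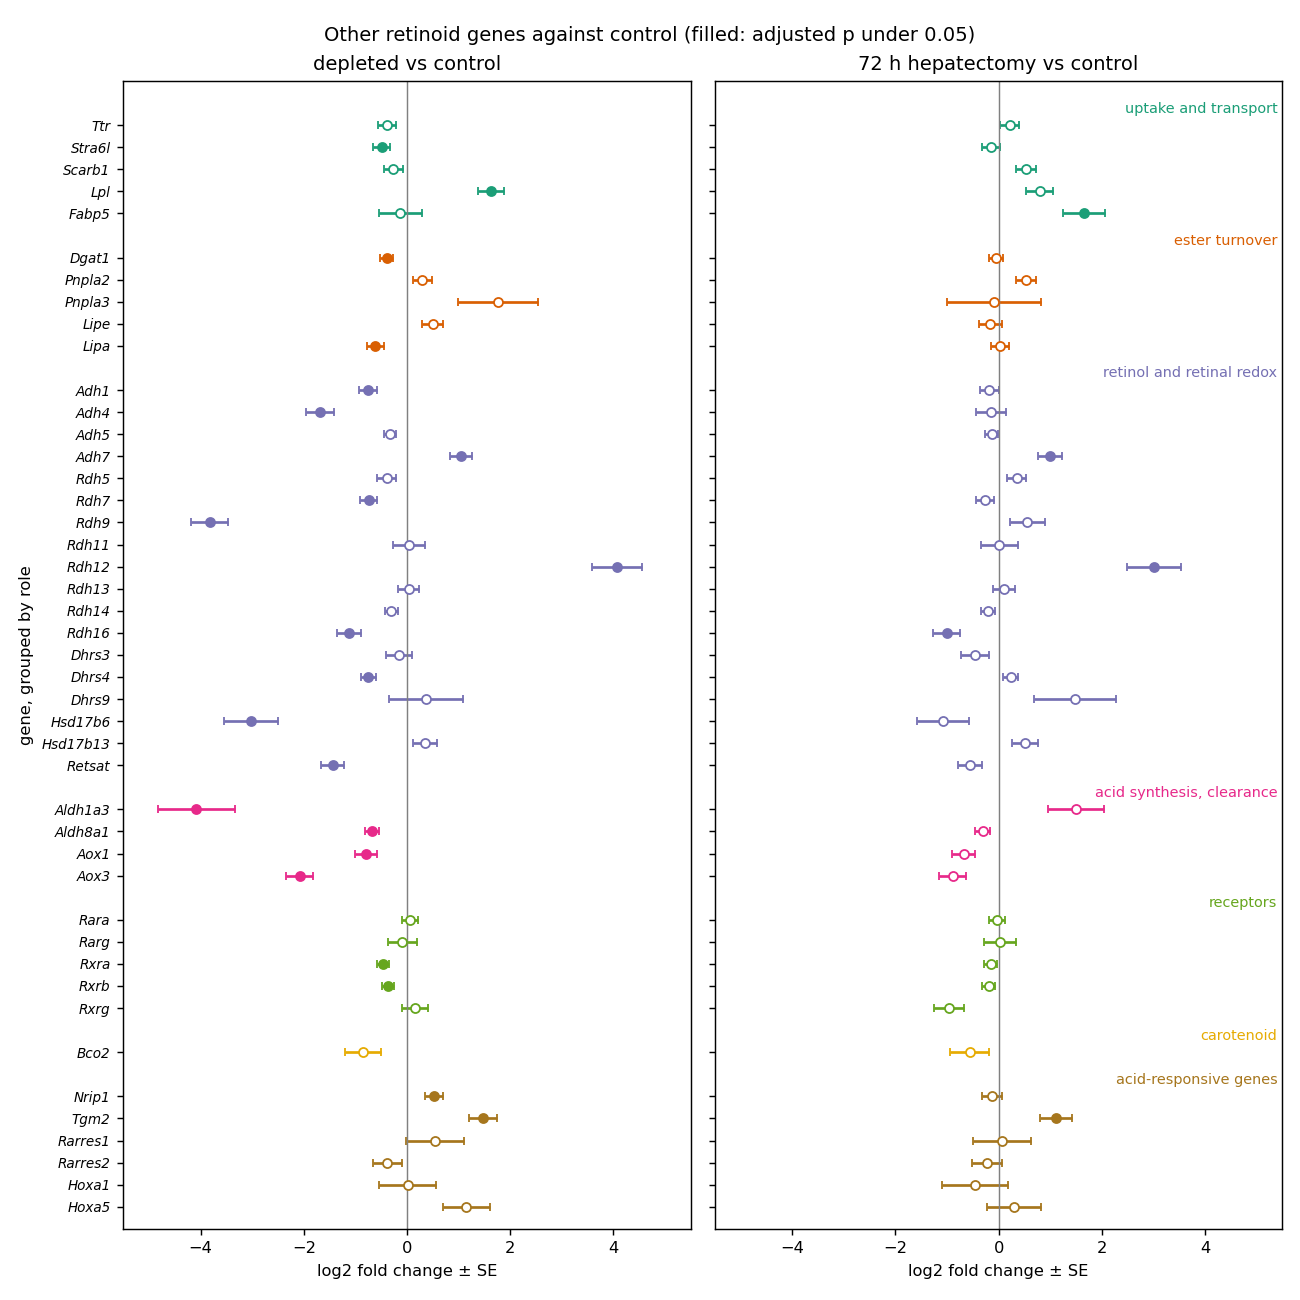
Log2 fold change with its standard error of the tested retinoid genes outside the 9 members, by role (1 of the 45 is not drawn), in depleted and hepatectomised livers against control (filled symbols passed the edgeR threshold). In depleted livers 17 fell and 5 rose, with all 4 synthesis genes below 0, and after hepatectomy 1 fell and 4 rose.

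The genes whose log2 CPM ran most like each member over the 13 libraries were also listed, among 11720 genes with a mean of at least 1 CPM. Libraries share groups and sex, so these correlations describe the pattern only. Lrat was most like Ccbe1 (Pearson r = 0.988), Adcy5 (0.986) and Colec10 (0.985), of which Colec10 is in the stellate marker list. Cyp26a1 was most like Rbm43 (0.951), Plekhm3 (0.943) and Stk4 (0.941). Cyp26b1 was most like Cd36 (0.937), Lrrk2 (0.916) and Galnt18 (0.914), and Rarb most like Wdr44 (0.904), Pot1a (0.903) and Mansc1 (0.889). Aldh1a2 was most like Lpl (0.960), Ahnak (0.912) and Laptm4a (0.903), and Aldh1a1 most like Cog4 (0.909), Bcs1l (0.908) and Tefm (0.907). The genes nearest to Rbp4 were Faah (0.974), Mrpl39 (0.936) and Mtfr1 (0.936), those nearest to Rdh10 were Qdpr (0.921), D10Jhu81e (0.917) and Rhpn2 (0.900), and those nearest to Bco1 were Ppip5k2 (0.933), Ahsg (0.932) and Crip2 (0.926).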

How the data were processed

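Total RNA from whole liver was taken up in TRIzol and 500 ng per sample went into stranded TruSeq mRNA libraries, per the labels' protocols. The authors deposited 1 table of raw read counts per gene for 13 libraries, with exon coordinates and lengths. Per the submitters' processing notes, STAR 2.7.1a, SAMtools 1.15.1, featureCounts 1.6.4 and mm10 were used, with no role or strand setting stated. Groups, sex and replicate numbers came from the labels. Symbols were matched for 21741 of 22048 gene IDs, and coordinates were those of the deposited table. Replicate libraries of each group differed by more than sampling noise.

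Counts were tested with edgeR 4.0.16 in R 4.3.3 (TMM scaling, filterByExpr leaving 13831 genes, robust estimateDisp and glmQLFit, glmQLFTest) in a model of group and sex over all 13 libraries, two-sided, with Benjamini-Hochberg adjustment over all tested genes at 0.05. The test was checked on simulated data. TPM was computed from counts and exon lengths. Alternatives were no sex term, only the groups compared, females only, library-size scaling, RLE factors, DESeq2 1.42.0, limma-voom (limma 3.58.1), other low-count filters, a replicate block and leaving out libraries. The members and gene lists were chosen with earlier results of these data known. All 9 members are named. Of the wider list, the rule named at most 3 called genes per role with the largest changes, plus Ttr, Rara, Rxra and Dhrs3 (1 further gene is not reported here), and the 3 genes most alike to each member. Adh7, Rdh16, Aldh8a1, Bco2, Ppbp, Tnfsf13b, Thy1, Clec4f and Vsig4 were named after their values were seen.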

Additional observations from a re-analysis of the deposited data

Results flagged for a closer look

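Lrat stood at 2.54 CPM in depleted replicate 4, the highest of the 4 depleted livers, against 0.193 CPM in the next library. The gap to that neighbour was 0.976 of the group's whole range, above the critical value of 0.829 for 4 libraries. Over the 18 member and group combinations tested in this way, about 0.9 such flags would be given by chance at 1 in 20. The same library had the highest stellate marker sum of its group, 78.0 CPM against 16.7 to 20.2 CPM, and its part in the Lrat value was not tested.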

How the results depend on the processing

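Among the 9 genes, the counts called in depleted livers, between the perturbed groups and for sex stayed within 1.5 times under the alternatives run. Leaving out 1 library gave 5 to 6 calls in depleted livers, 3 to 5 between the perturbed groups, 1 to 1 after hepatectomy and 0 to 0 for sex. After hepatectomy, females alone gave 0 calls, and leaving out control replicates 1 and 6, or control replicate 6 with depleted replicate 4 (both chosen after seeing the data), gave 2, which were Bco1 with Cyp26a1 (-2.84, adjusted p = 0.035) and Bco1 with Lrat (-1.36). In the wider list, single libraries left out gave 18 to 24 calls in depleted livers, 7 to 15 between the perturbed groups and 2 to 7 after hepatectomy. Females alone gave 6 calls between the perturbed groups and 0 after hepatectomy, where DESeq2 and library-size scaling gave 9, and the replicate block and the omission of control replicates 1 and 6 gave 1. The counts above stand without the share of all tested genes called in the same fit. They therefore do not tell a shift of these genes from a shift in calling throughout. Library-size scaling shifted the median of all genes to 0.08 in depleted livers, -0.24 after hepatectomy and 0.27 between them. The females-only fit holds 1 hepatectomised library, assumed to vary like the others.

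Deviations of same-numbered libraries from their group and sex levels had mean correlations of 0.116 (control with depleted), -0.052 (control with hepatectomised) and 0.158 (depleted with hepatectomised). Differently numbered libraries had -0.018, 0.012 and -0.052. With 3 or 4 same-numbered pairs each, these values do not decide whether the numbers mark pairs. The numbers were not taken as pairs because same-numbered libraries mostly differed in sex between depleted livers and the other groups. The replicate block gave 5 member calls in depleted livers, losing Rdh10 (-0.38, adjusted p = 0.0861), 4 between the perturbed groups and 1 after hepatectomy.

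The values that changed sign were all uncalled. With females alone they were Aldh1a2 between the perturbed groups (-0.28), Bco1 (-0.13) and Fabp5 (0.48) in depleted livers, and Dgat1 (0.12), Hsd17b6 (0.27), Lipa (-0.38), Rara (0.31), Rbp4 (0.30) and Rdh9 (-0.59) after hepatectomy. Under the block they were Bco1 in depleted livers (-0.02), Lipa (-0.04) and Rara (0.01) after hepatectomy, and Aldh1a2 (0.33), Cyp26a1 (0.08), Lrat (0.07) and Rbp4 (-0.13) for sex. Library-size scaling changed Fabp5 in depleted livers (0.01), Lipa after hepatectomy (-0.19) and Rdh10 between the perturbed groups (0.08). Without a sex term, Fabp5 (0.08) and Rara (-0.02) in depleted livers and Lipa after hepatectomy (-0.06) changed. With limma-voom, Aldh1a2 (0.10) and Cyp26b1 (-0.24) for sex changed. Without control replicates 1 and 6, Dgat1 (0.06), Lipa (-0.20), Rara (0.13) and Rbp4 (0.18) after hepatectomy and Cyp26a1 (0.33), Rarb (0.00) and Rbp4 (-0.01) for sex changed. Without control replicate 6 and depleted replicate 4, Lipa (-0.05), Rara (0.00) and Rbp4 (0.07) after hepatectomy, Rara in depleted livers (-0.01), and Aldh1a2 (0.04) and Cyp26a1 (0.05) for sex changed. The cause was not tested.

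With 1 library left out, the ranges that crossed 0 were Bco1 -0.11 to 0.23, Fabp5 -0.68 to 0.30 and Rara -0.03 to 0.20 in depleted livers. After hepatectomy they were Dgat1 -0.12 to 0.01, Lipa -0.14 to 0.22, Rara -0.15 to 0.09, Rarb -0.81 to 0.09, Rbp4 -0.16 to 0.06 and Stra6l -0.28 to 0.03. For sex they were Aldh1a1 -0.01 to 0.49, Aldh1a2 -0.28 to 0.53, Cyp26a1 -1.17 to 0.13 and Cyp26b1 -0.67 to 0.45. Depth limits the low genes most, since Aldh1a2 in controls and Lrat in depleted replicates 1, 2 and 3 rest on fewer than 20 reads each.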

Other observations

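Of the 45 tested wider retinoid genes, 3 were called for sex over all groups (edgeR), where 1.03% of all tested genes were. Aox1 and Aox3, molybdenum-containing aldehyde oxidases, were higher in males by 1.28 and 1.07 on the log2 scale (adjusted p = 0.00362 and 0.0268), and Rdh16, a retinol dehydrogenase, was lower in males, at -0.98 (adjusted p = 0.0371). For Aox3 the control males held 987, 839 and 1013 CPM and the control females 299, 342 and 350 CPM. Its depleted libraries held 101, 81.6 and 101 CPM in females and 179 CPM in the male, so within each sex depleted livers lay below controls.

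The direct repeat with 5 bases between occurred in promoter windows of 31 genes, of which 6 were tested. Of these, Cyp26a1, Ppbp, a platelet chemokine (2.81, edgeR adjusted p = 0.0111), and Tnfsf13b, the B cell factor BAFF (1.07, adjusted p = 0.0292), were higher in depleted livers, and 0 were lower, where 18.9% of all tested genes were higher and 15% lower. After hepatectomy none passed (8.42% of all tested genes did). With 6 genes tested, and Cyp26a1 known beforehand to rise, the count is a description only.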
